A study of Mus musculus with 188 samples.

Results

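The cells described here are the mouse tail keratinocytes in which Krt36, a hair-type keratin of tail scales, reached at least 50 CPM (reads of the gene divided by all reads on genes in that cell, times 1e6). They were chosen by this value alone, and numbered 59, or 31.4% of all cells on 2 plates of 94 (95% exact binomial interval 24.8 to 38.5), with 24 on plate 1 and 35 on plate 2. They were set against 71 cells with Krt36 under 10 CPM (39 and 32), and the 58 cells between both limits (31 and 27) were left out. Because Krt36 chose the members, its level is a description and supports nothing. The lowest members had 50.4 and 51.4 CPM, the highest cells just outside had 48.9 and 47.9 CPM, and the highest Krt36-negative cell had 9.76 CPM.

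All cells came from the tail epidermis of Lrig1-CreERT2/RosaYFP mice at postnatal day 20 and were sorted as interfollicular basal cells that lacked CD34 and YFP and carried integrin alpha 6. YFP marks cells in which the Lrig1-driven recombinase was active, so the gate leaves those cells out. Each cell was 1 Smart-seq2 library, in which polyadenylated RNA is turned into cDNA over its full length and amplified. No label names an animal, so all cells count as 1 sample, both sets came from it, and cells are not replicates. Differences are therefore given without p-values or standard errors.

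Tail epidermis is patterned into scales, where cornified cells keep their nuclei, and interscale epidermis next to the hair follicles, where they lose them. Scale keratinocytes turn on hair-type keratins, relatives of the keratins that build the hair shaft, among them Krt36 and its type II relative Krt84. Interscale cells instead make the ordinary differentiation keratins Krt10 and Krt2 as they leave the basal layer.

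Total counts over genes ran between 83356 and 1093805 in Krt36-positive cells (median 346783) and between 156993 and 1040313 in Krt36-negative cells (median 429793). In a member, 1 read was thus worth 0.914 to 12 CPM. The positive cells had medians of 7622 genes with a read, 6.14% mitochondrial counts and 0.610% spike-in counts. The negative cells had medians of 7701 genes, 6.49% and 0.558%. No pair of cells had identical counts.

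Krt36-positive cells were not scattered over the plates. Of the 59 members, 31 (52.5%) sat in 4 of the 24 well columns, numbered 5, 10, 13 and 20 in the labels' coordinates (columns 1 to 12 are plate 1). Those 4 columns held 32 cells, of which 31 were members (96.9%) and none was Krt36-negative. In the other 20 columns 28 cells were members (17.9% of the cells there), and 5 of these columns had no member. The 4 columns were singled out after their values were seen, as those whose lowest well held at least 30 Krt36 reads. The lowest well of any other column held at most 9. At the depths of the 4 columns, this choice by Krt36 itself left no room for Krt36-negative cells. It also made a high share of members there likely. The shares inside and outside the 4 columns are therefore descriptions, and no interval is given for them.

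**Figure D1:**
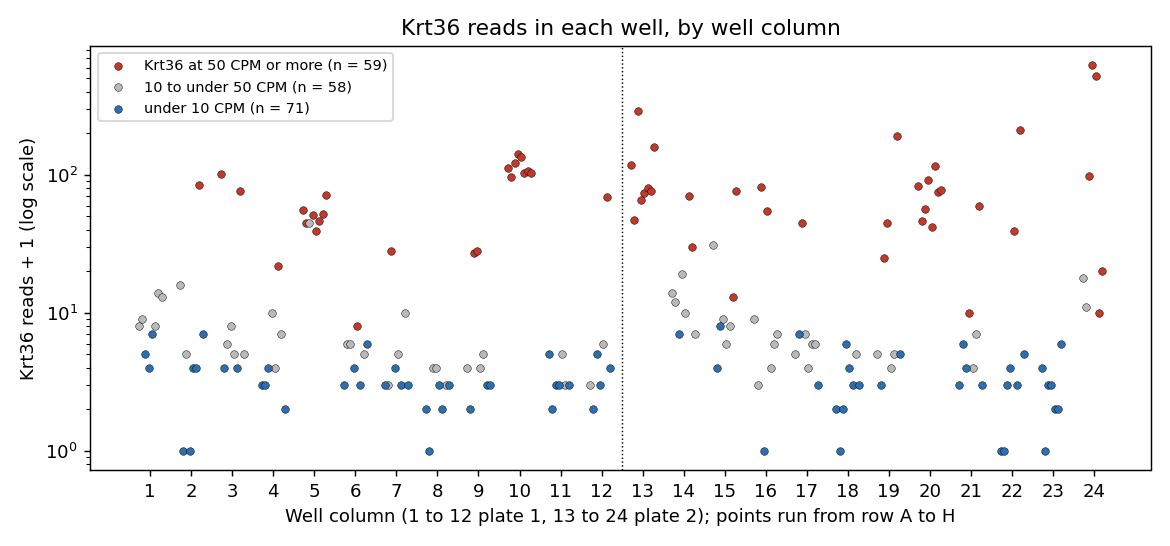
Krt36 reads plus 1 in each well (log scale) by well column, with cells at 50 CPM or more, cells between the limits and cells under 10 CPM in separate colours. In columns 5, 10, 13 and 20 every well held at least 38 reads, while the medians of the other columns lay between 2 and 19.

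In columns 5 and 10 the reads of the wells lay close to each other, and in column 13 they did not. Column 10 held 95 to 140 Krt36 reads per well (median 108.5), a 1.47-fold range, although the total counts of its wells differed 2.51-fold. Column 5 held 38 to 71 reads (median 47.5), a 1.87-fold range, against a 4.27-fold range of total counts. Column 13 held 46 to 288 reads (median 77), a 6.26-fold range that was wider than the 3.12-fold range of total counts. Column 20 held 41 or more (median 75.5), a 2.83-fold range, against 3.78-fold for total counts. Over the 32 cells, Spearman's rho of Krt36 reads with total counts was -0.07, and rho of Krt36 CPM with total counts was -0.72, where total counts are also the divisor of CPM. Within single columns rho of reads with total counts was 0.20 in column 5, 0.02 in column 10, 0.31 in column 13 and -0.55 in column 20.

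**Figure D2:**
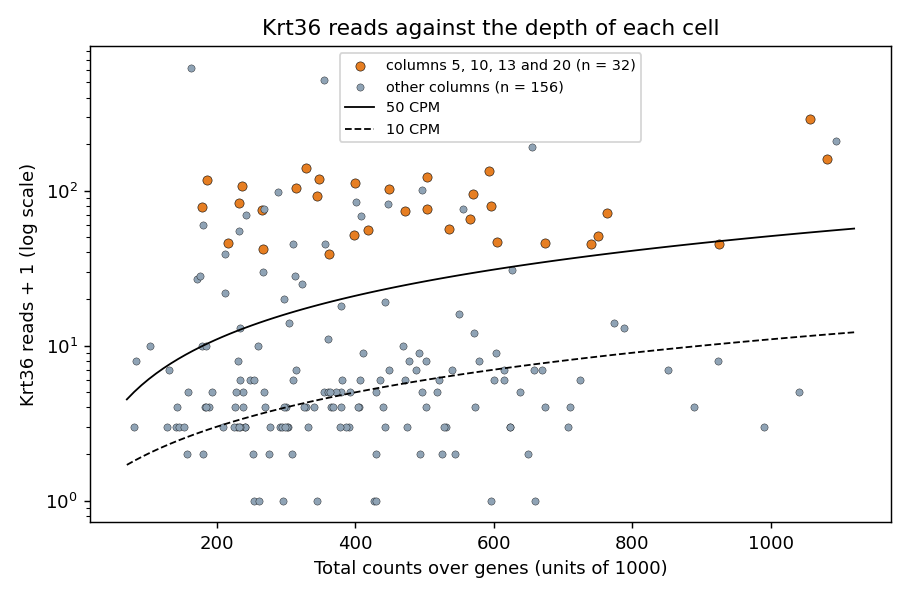
Krt36 reads plus 1 (log scale) against total counts over genes in units of 1000, with cells of columns 5, 10, 13 and 20 in orange, all other cells in grey, and curves at 50 and 10 CPM. All but 1 of the 32 orange cells lie above the 50 CPM curve, at depths across most of the range.

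Both markers of tail scale shared this layout. Between well columns lay 59.7% of the variance of log2(reads + 1) of Krt36 and 45.2% of that of Krt84, which rank 1 and 2 among 9345 genes with at least 10 CPM in at least 10% of cells. The median gene had 14.2% and the 99th percentile was 27.9%. On log2(CPM + 1) both kept these ranks, with 54.1% and 40.4%. Krt10 at 13.1%, Krt2 at 11.6% and Krt15 at 14.8% lay near the median gene on reads. The basal keratins Krt14 at 21.5% and Krt5 at 22.73% lay higher, Krt5 just above the 95th percentile of 22.67%. On log2(CPM + 1) Krt14 had 13.9% and Krt5 15.1%, where the median gene had 12.9%. The ribosomal RNA of mitochondria, mt-Rnr2, ranked next on reads with 42.99%.

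**Figure D3:**
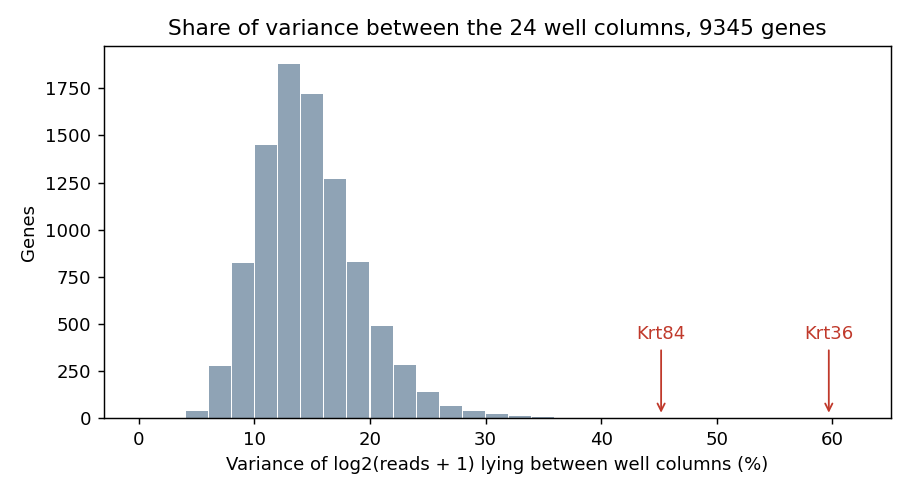
Histogram of the share of variance of log2(reads + 1) that lies between the 24 well columns (percent, horizontal axis) against the number of genes (vertical axis). Krt36 at 59.7% and Krt84 at 45.2% stand to the right of all other genes.

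The 4 columns held 46.8% of all 5977 Krt36 reads and 31.4% of all 2059 Krt84 reads, but 20.5% of the total counts. Krt84 medians per well were 11.5 reads in column 5, 30 in column 10, 12.5 in column 13 and 28 in column 20, against 0 to 10 in the other columns. Reads that strayed between wells of the table were estimated from genes with at least 100 reads in 1 well and at most 50% as many in all other wells together. That estimate gave 0.735 to 3.25 stray Krt36 reads per well, and 58 of 59 members held more than 3 times their own estimate. Members were chosen by Krt36 itself, which fixed nearly all of these passes in advance. All but wells E6, F24 and D21, with 7, 9 and 9 Krt36 reads, lay above 3 times even the highest estimate. The count of 58 is therefore a description and supports nothing. The estimate covers only sources within this table, and only the excess in the same lettered row or column over wells that share neither. The rate in those wells, 6.89 reads per 10000 source reads, was left out. Stray reads spread over all wells are thus not in the estimate. Members per lettered row A to H were 5, 4, 9, 8, 8, 8, 12 and 5. What put Krt36 reads into every well of a column was not tested. The label tail scale-like therefore rests, for 31 of the 59 members, on a signal that went with plate position. They are called Krt36-positive cells here, and results are also given for the 28 members outside the 4 columns.

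Of those 28, 9 were on plate 1 and 19 on plate 2. Their Krt36 ranged between 50.4 and 3828 CPM, with a median of 160.5 CPM from 7 to 623 reads. Of the 28, 22 held more than 3 times the median Krt36 reads of the other wells of their column. Only 1 member of the 4 columns did so, which makes 23 such members, 8 on plate 1 and 15 on plate 2. Members and the 4 columns were both chosen by Krt36, so these counts are descriptions and support nothing. Outside the 4 columns, column 24 had the most members, 5 of its 7 wells, and no Krt36-negative cell. Its wells D24 and E24 held 623 and 519 Krt36 reads (3828 and 1464 CPM) and together 19.1% of all Krt36 reads. They also had the highest Krt84 of all members, at 633 and 333 CPM. Both had differentiation keratin at high levels, with Krt10 at 23481 and 14928 CPM and the basal keratin Krt14 at 6114 and 12702 CPM. Well C24 of that column had Krt36 at 337 CPM, Krt84 at 125.2 CPM and Krt10 at 20456 CPM.

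Krt84, the type II hair keratin that can pair with type I keratins such as Krt36, had the largest difference of all 9344 genes compared, higher in Krt36-positive cells. In the annotation (GENCODE M21, GRCm38) its gene, ENSMUSG00000044294, lies at chr15:101525026-101532820 on the minus strand. In Krt36-positive cells the lowest, median and highest Krt84 levels were 0, 27.5 and 633 CPM, against 0, 3.37 and 233 CPM in Krt36-negative cells. The sets overlap over most of their range. Means were 55.2 ± 95.5 CPM in positive cells (SD over 59 cells) and 14.5 ± 39.9 CPM in negative cells (SD over 71 cells). The difference of the means of log2(CPM + 1), members minus negative cells, was 2.12 on plate 1 and 2.64 on plate 2.

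The difference was larger in the 4 columns than outside them. Members there had 12, 51.8 and 184.8 CPM of Krt84 (lowest, median, highest), and their differences from the negative cells were 3.06 and 3.65 on the 2 plates. Members elsewhere had a median of 9.49 CPM, and the differences were 0.55 and 1.80, so plate 1 fell short of a log2 difference of 1. At 10 CPM or more, Krt84 was found in 31 of 31 members within the 4 columns, in 13 of 28 members outside them (46.4%, interval 27.5 to 66.1) and in 12 of 71 negative cells (16.9%, interval 9.05 to 27.7). No Krt84 read was found in 6 of the 28 and in 22 of the 71. The 28 members were shallower, with median total counts of 278093 against 429793 in negative cells. In them 1 read was worth up to 12 CPM, against up to 6.37 CPM in negative cells. Member wells D9 and E6 reached 10 CPM on 2 Krt84 reads each, and negative well H21 on 3. How far depth made the difference between these shares was not tested. Among the 23 members that stood above their own column, the mean of both plate differences was 0.99.

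**Figure D4:**
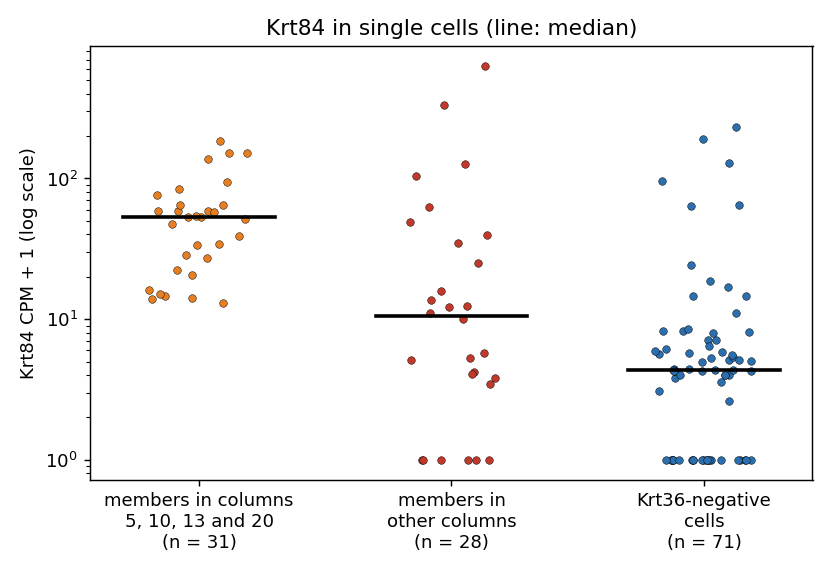
Krt84 CPM plus 1 (log scale) per cell in members of columns 5, 10, 13 and 20, members of other columns and Krt36-negative cells, with a line at each median. The medians are 51.8, 9.49 and 3.37 CPM, and 6 members and 22 negative cells have no Krt84 read.

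Outside the 4 columns a high Krt36 level often came without Krt84. The 8 with Krt36 at 200 to under 500 CPM had a median Krt84 of 7.14 CPM, and 5 of them were under 10 CPM. The 10 at 100 to under 200 CPM had a median of 3.97 CPM, with 7 under 10 CPM. Well G19, with 192 Krt36 reads, held 2 Krt84 reads, and G21, with 59 Krt36 reads, held none. Across cells, Spearman's rho between Krt36 and Krt84 CPM was 0.47 over all cells of both plates and 0.28 over those outside the 4 columns, where Pearson's r on the log2 scale was also 0.28. Without D24 and E24 rho was 0.25 and r was 0.17. Within the 32 cells of the columns rho was 0.74 on CPM but 0.38 on reads. These cells share depth and plate position, and the coefficients are descriptions only.

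Hair-type keratins beyond Krt36 and Krt84 showed no common direction. The list held 16 genes, and only Krt84 and Krt32 reached 10 CPM in at least 10% of cells. Krt85 was not analysed here, and Krt39, Krt40 and Krt88 had no read. Krt32, a type I hair keratin, averaged 36.2 ± 71.8 CPM in positive cells and 43.2 ± 77.2 CPM in negative cells (SD, 59 and 71 cells), with medians of 5.54 CPM in positive cells and 3.43 CPM in negative cells. Its plate differences had opposite signs, 0.51 and -0.31. At least 10 reads of any of the other 13 genes were found in 12 of 59 positive cells (20.3%, interval 11.0 to 32.8) and in 12 of 71 negative cells (16.9%, interval 9.05 to 27.7). Krt31, a keratin of scale and hair cortex, had a highest level of 11.2 CPM in positive cells and 90.7 CPM in negative cells, and was below the filter. Also below it, Krt35 reached 123.2 CPM in positive cells and 53.8 CPM in negative cells, and Krt86 reached 128.8 CPM in positive cells and 83.2 CPM in negative cells. Krt33a averaged 9.77 CPM in positive cells and 6.52 CPM in negative cells, with differences of 0.73 and 0.29, and 0.63 and -0.31 outside the 4 columns.

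Several hair-type keratins in 1 cell were found among members and other cells alike. The highest Krt84 count of the table, 242 reads or 233 CPM, was in Krt36-negative well H22, which had 4 Krt36 reads, 72 reads of Krt34 and 56 of Krt35. Krt36-negative well C1 held 82 reads of Krt84, 39 of Krt31, 48 of Krt33a and 44 of Krt33b, again with 4 of Krt36. Well A2, between the limits with 15 Krt36 reads, had Krt33a at 189 CPM, Krt86 at 138.2 CPM and Krt32 at 99.98 CPM. At least 10 reads of 2 or more of those 13 genes were found in 2 of 59 members, wells D5 and E13, in 2 of 71 negative cells and in 3 of the 58 cells between. Close hair keratins have similar sequences, so reads split among Krt33a, Krt33b and Krt31, or among Krt81, Krt83, Krt86 and Krt87, are uncertain. Wells D24 and E24 held almost none of these transcripts, except 42 reads of Krt32 in E24 and 8 of Krt86 in D24.

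Across all genes the sets were close. Called genes are those with a difference of at least 1 in mean log2(CPM + 1), in the same direction on both plates, and no test stands behind the count. Such differences are given for plate 1 first, then plate 2. Of 9344 genes, 44 passed (0.471%), with 29 higher (0.31%) and 15 lower (0.161%) in Krt36-positive cells. The median difference of all genes was 0.03. Abundant genes, with a mean of at least 50 CPM, were also counted at a difference of 0.5 on both plates, which 196 of 3684 passed (5.32%), 3.42% higher and 1.9% lower. For the 28 members outside the 4 columns the first count was 150 (1.61%), with 1.2% higher and 0.407% lower, and the second was 332 (9.01%), with 6.57% higher and 2.44% lower. This set was smaller, with 9 members on plate 1, and shallower, with median total counts of 278093 against 429793 in negative cells. The 25 members at 200 CPM or more, taken from all columns, gave 1.52% for the first count. How far set size and depth made the higher counts was not tested. Of the 44 genes, 17 (38.6%) were also among the 150 in the same direction, which is 11.3% of the 150.

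**Figure D5:**
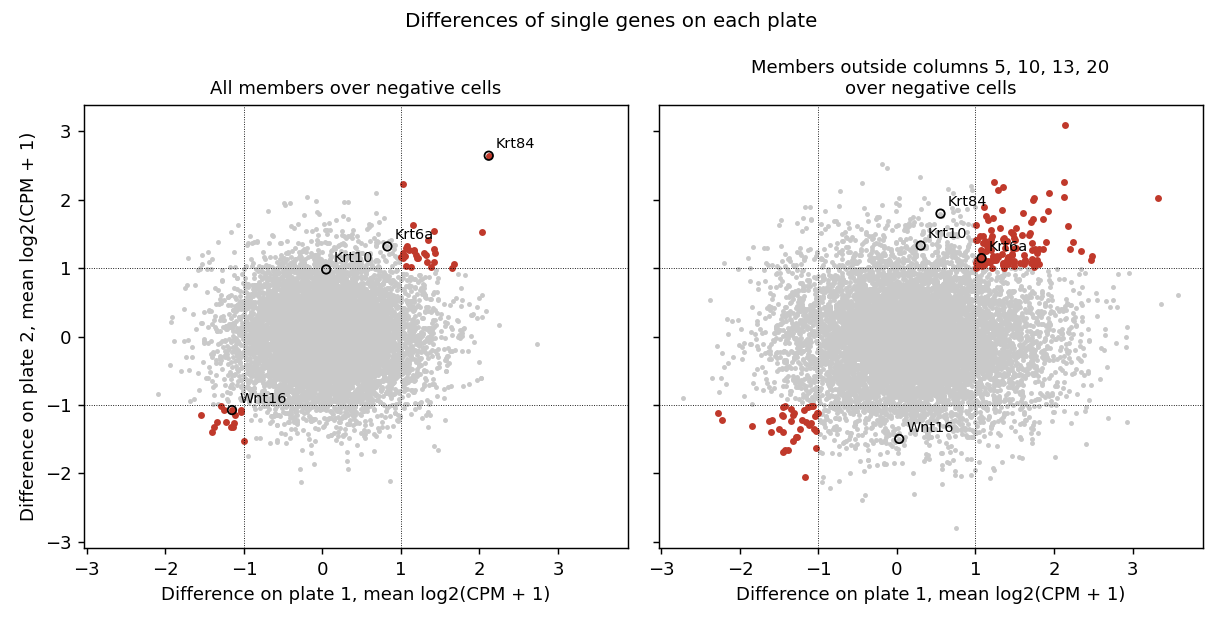
Difference in mean log2(CPM + 1) on plate 1 (horizontal) and plate 2 (vertical) for 9344 genes, for all members over negative cells (left) and members outside columns 5, 10, 13 and 20 over negative cells (right). Genes past 1 on both plates are red, 44 on the left and 150 on the right, and Krt84 is red only on the left.

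None of the other genes named by rank is on the lists of hair-type keratins, scale regulators or interscale genes. Many of them, higher or lower, had medians of a few CPM in 1 or both sets, near the worth of a few reads. With log2(CPM + 10) and all members, none of them passed the size rule, and only Krt84 did. Map4k4, a stress-responsive kinase, averaged 58.8 ± 87.4 CPM in positive cells and 20.7 ± 39.2 CPM in negative cells, with differences of 2.03 and 1.53, and 2.24 and 1.38 outside the 4 columns. Mlx, a transcription factor that partners with glucose-sensing factors, averaged 39.8 CPM in positive cells and 11.5 CPM in negative cells, with differences of 1.43 and 1.54. Its medians were 5.85 CPM in positive cells and 1.63 CPM in negative cells. Outside the columns its plate 1 difference was 0.70. Grwd1, which acts in ribosome assembly, averaged 104.3 CPM in positive cells and 59.6 CPM in negative cells and passed in both forms of the comparison. The mitochondrial RNA helicase Supv3l1 averaged 39.6 CPM in positive cells and 20.6 CPM in negative cells. It passed outside the columns as well, as did Chid1, Rlf and Dnajc17. Other higher genes named by rank were L3hypdh, Wdsub1, Lmo7, Nat10, A930005H10Rik and 2810001G20Rik, with differences up to 1.42 on a plate, and none of these 6 passed outside the columns.

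Among lower genes Rab34, a small GTPase of cilium formation, averaged 47.4 ± 94.9 CPM in Krt36-positive cells and 104.5 ± 124.1 CPM in Krt36-negative cells, with differences of -1.41 and -1.40. Outside the 4 columns they were -0.98 and -1.68. Wnt16, a secreted Wnt ligand made in epidermis, averaged 56.5 ± 79.2 CPM in positive cells and 128.5 ± 182.7 CPM in negative cells, with differences of -1.15 and -1.07. Outside the columns its plate 1 difference was 0.03 and its plate 2 difference -1.49. Dpm2, a subunit of dolichol-phosphate mannose synthase, averaged 98.5 CPM in positive cells and 174.7 CPM in negative cells, and Dolk, the kinase that makes dolichol phosphate, averaged 30.8 CPM in positive cells and 44.3 CPM in negative cells. The medians of Dolk were 1.80 CPM in positive cells and 7.89 CPM in negative cells. Mkks, a chaperonin-like protein, averaged 57.4 CPM in positive cells and 93.5 CPM in negative cells. Nampt, an enzyme of NAD salvage, averaged 20.8 CPM in positive cells and 50.2 CPM in negative cells, and its differences of -1.04 and -1.07 became -0.94 and -2.04 outside the columns. Of the 15 lower genes only 2510039O18Rik passed in both forms. The 15 also included Arhgap21, Mfap3l, Dirc2, Ssh2, Zfp592, Zcchc10, Ascc3 and Ccpg1os.

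The ranking outside the 4 columns, made after the values were seen, was led by other genes. Ap2a1, a subunit of the clathrin adaptor AP-2, averaged 48.5 CPM in these 28 members and 11.4 CPM in negative cells, with differences of 2.14 and 3.09. Hsdl1, a dehydrogenase-like protein, averaged 105.3 CPM in these members and 36.5 CPM in negative cells, with differences of 3.33 and 2.02. Il17rc, a subunit of the interleukin 17 receptor, averaged 136.8 CPM in these members and 46.1 CPM in negative cells. Klk8, a serine protease of differentiating epidermis, averaged 57.5 CPM in these members and 18.6 CPM in negative cells, with differences of 1.73 and 1.72. Of the lower genes, the copper importer Slc31a1 averaged 37.98 CPM in these members and 96.3 CPM in negative cells and Cpt1a, which carries fatty acids into mitochondria, 19.9 CPM in these members and 85.98 CPM in negative cells. Taking all 59 members, of these 6 genes only Ap2a1 and Hsdl1 passed the size rule.

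Regulators of hair-type keratins and the scale lineage showed no shared difference. Of 17 genes, 10 passed the filter on low values, 7 were above 0 and 3 below, and none passed either size rule, with a median difference of 0.30 beside 0.03 for all genes. Only 0.471% of all genes passed the larger rule and 5.32% of abundant genes the smaller, so no call among so few genes says little. Hoxc13, a homeobox activator of hair keratin genes, had a median of 18.4 CPM (0 to 444) in positive cells and 10.9 CPM (0 to 278) in negative cells. Its differences were 1.64 on plate 1 and 0.02 on plate 2. Foxq1, a forkhead factor of hair differentiation, had a median of 60.6 CPM (0 to 514) in positive cells and 21.9 CPM (0 to 776) in negative cells, with differences of 1.60 and 0.29. Outside the columns the Hoxc13 differences were 1.04 and -0.75, with opposite signs, and those of Foxq1 were 1.32 and 0.32. Foxn1, which drives keratinocyte and hair differentiation, averaged 15.5 CPM in positive cells and 7.55 CPM in negative cells, and Gata3, a factor of epidermal and inner root sheath lineages, 89.5 CPM in positive cells and 133.5 CPM in negative cells. Edaradd, the adaptor of the Edar receptor, averaged 85.6 CPM in positive cells and 81.5 CPM in negative cells. Msx2, a homeobox gene of hair and skin appendages, averaged 29.9 CPM in positive cells and 23.4 CPM in negative cells, and Slc1a3, a glutamate transporter whose promoter labels scale cells in tail, 15.5 CPM in positive cells and 10.0 CPM in negative cells. Edar itself had no read, and Prdm1, a transcriptional repressor of differentiated keratinocytes, had 2 reads in 1 Krt36-negative cell.

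Krt10 and Krt2, both interscale keratins in tail, were not lower on either plate in the full set of Krt36-positive cells. Krt10, the type I keratin of suprabasal cells, had a lowest, median and highest level of 268, 1177 and 28591 CPM in positive cells and 185.4, 777 and 45289 CPM in negative cells. Its differences were 0.05 and 0.98. Krt2, the interscale keratin of tail, had 173.6, 1045 and 61637 CPM in positive cells and 135.9, 996 and 61002 CPM in negative cells, with differences of 0.14 and 0.68. Outside the 4 columns the differences were 0.30 and 1.33 for Krt10 and -0.05 and 0.90 for Krt2. Krt10 at 1000 CPM or more was reached by 31 of 59 positive cells (52.5%, interval 39.1 to 65.7) and 30 of 71 negative cells (42.3%, interval 30.6 to 54.6). Outside the columns 17 of 28 members reached 1000 CPM (60.7%, interval 40.6 to 78.5). That limit also takes in shallow cells with high Krt14, such as well F20 (186017 total counts, Krt10 at 1048 CPM, Krt14 at 39690 CPM). Median total counts were 346783 in positive cells, 278093 in those outside the columns and 429793 in negative cells. Krt10 at 10000 CPM was reached by 20.3% of positive cells (interval 11.0 to 32.8) and 12.7% of negative cells (interval 5.96 to 22.7). Krt2 at 1000 CPM was reached by 54.2% of positive and 49.3% of negative cells. The intervals cover counting error in these cells only, and the shares were not tested against each other. Of 10 interscale genes 5 passed the filter, 4 lay above 0 and Hrnr below. None passed a size rule, beside 0.471% of all genes past the larger rule, and the median difference was 0.41. It was 0.05 on plate 1 and 0.68 on plate 2, and turned to -0.15 among cells with Krt10 under 1000 CPM. Krt1 had opposite signs, -0.56 and 0.76.

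Basal genes lay at similar levels in both sets. Krt14 averaged 32423 ± 14832 CPM in positive cells and 32897 ± 13489 CPM in negative cells, and its partner Krt5 averaged 20095 CPM in positive cells and 20441 CPM in negative cells. Krt15, a basal keratin, had a median of 2747 CPM (241 to 30362) in positive cells and 4313 CPM (173.99 to 27701) in negative cells, with differences of -0.58 and -0.05. Itga6, the integrin used in the sort, had medians of 507 CPM in positive cells and 565 CPM in negative cells, and Lrig1, whose reporter the gate selected against, averaged 7.73 CPM in positive cells and 6.14 CPM in negative cells. All 15 basal genes passed the filter, 3 above 0 and 12 below, with no gene past a size rule and a median difference of -0.08. The 15 early differentiation genes had 12 above 0 and 3 below, also with none past a rule, and a median of 0.10. Of 16 late differentiation genes 7 passed the filter, 2 above and 5 below, with a median of -0.18. Beside these lists, 0.471% of all genes passed the larger rule and 5.32% of abundant genes the smaller. At those shares lists this small can easily hold no called gene.

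Krt6a was, after Krt84, the keratin with the largest difference on the plate nearer to 0. This stress-induced keratin, whose reads may be shared with Krt6b, had a median of 20.2 CPM (0 to 3618) in positive cells and 13 CPM (0 to 3208) in negative cells. Its differences were 0.83 and 1.32, and outside the 4 columns 1.08 and 1.15, where it passed the size rule. Well C13, a member in the 4 columns, held 3821 of all 12619 Krt6a reads (30.3%). At such low medians a few reads strayed between wells weigh more in shallow cells. Median total counts were 278093 in members outside the columns and 429793 in negative cells. How far this made the Krt6a difference was not tested. Krt16, a keratin made with it under stress, had medians of 46.5 CPM in positive cells and 56.9 CPM in negative cells, with plate differences of opposite sign both for all members and outside the columns. Krt17 had medians of 41.4 CPM in positive cells and 30.4 CPM in negative cells, where 1 cell reached 6776 CPM. Its differences were -0.29 and 0.29, and outside the columns 0.78 and 0.18, with a median of 52.6 CPM in those members.

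Signalling lists held few genes past a size rule, as did the whole set of genes. Of 23 Wnt pathway genes 17 passed the filter, 5 above and 12 below 0, and the median was -0.12. Of 14 Notch pathway genes 11 passed, 6 above and 5 below, with a median of 0.02. Of 24 BMP and TGF-beta genes 19 passed, 13 above and 6 below, with a median of 0.26. Smad5, a transducer of BMP signals, passed the rule for abundant genes at 1.08 and 0.52, but its plate 2 difference was -0.20 outside the columns. Of 12 Eda and Edar pathway genes 6 passed, 1 above and 5 below, with a median of -0.25 and none past a rule. Outside the columns 2 of them passed the rule for abundant genes as lower, beside 2.44% of all abundant genes. They were Tnfrsf19, a receptor related to Edar (-1.16 and -0.78), and Nfkbia, the inhibitor of NF-kappa B (-0.88 and -0.53). Of 14 EGF receptor pathway genes 7 passed, 4 above and 3 below, with a median of 0.16, and the receptor Erbb2 passed the rule for abundant genes in both forms, with a mean of 62.4 CPM in positive cells and 40.7 CPM in negative cells. In these 5 lists no gene passed the larger rule, beside 0.471% of all genes, a share at which lists this small hold few or none. Of all abundant genes 3.42% passed the smaller rule as higher, the direction of Smad5 and Erbb2. Wnt16, which passed the larger rule, is not on the Wnt list.

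Cell cycle genes showed no common direction. Cells with at least 25% of 33 G2/M genes at 10 CPM were 11 of 59 positive cells (18.6%, interval 9.69 to 30.9) and 15 of 71 negative cells (21.1%, interval 12.3 to 32.4). With each cell thinned to 150000 reads the shares were 24.6% of 57 positive cells, after 2 shallower ones were left out, and 22.5% of 71 negative cells. The proliferation marker Mki67 averaged 65.9 CPM in positive cells and 70.02 CPM in negative cells, and the cell cycle inhibitor Cdkn1a averaged 500.4 CPM in positive cells and 427.5 CPM in negative cells. Cdc20, an activator of mitotic exit, averaged 17.04 CPM in positive cells and 70.9 CPM in negative cells, and the DNA topoisomerase Top2a averaged 87.7 CPM in positive cells and 69.3 CPM in negative cells. Both passed the rule for abundant genes, in opposite directions, beside 3.42% of all abundant genes as higher and 1.9% as lower. Outside the columns Top2a passed with 1.56 and 0.51, and Cdc20 did not, with -0.02 and -0.88. Of 25 S phase genes 11 lay above 0 and 12 below among the 23 that passed the filter.

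Markers of other cell types were low in both sets. No gene of the melanocyte, Merkel cell or endothelial lists passed the filter, and summed levels per cell had medians of 1.75 CPM in positive cells and 2.27 CPM in negative cells for melanocytes, and 0 in both sets for the other lists. The fibroblast list summed to a median of 6.38 CPM (0 to 270) in positive cells and 6.69 CPM (0 to 553) in negative cells. The Langerhans list summed to 2.82 CPM (0 to 180) in positive cells and 4.94 CPM (0 to 383) in negative cells, with its defining gene Cd207 at 0. The T cell list had a median of 0 in both sets, with Cd3e and Cd3d at 0. Hair follicle lists were present in both sets. The bulge list had a median sum of 281 CPM in positive cells and 273 CPM in negative cells, with Cd34 at 0, the upper follicle list 1423 CPM in positive cells and 1223 CPM in negative cells, the matrix and cortex list 143.9 CPM in positive cells and 121.03 CPM in negative cells, and the sebaceous list 295 CPM in positive cells and 374 CPM in negative cells. Of these follicle lists, with all members compared, only Col18a1, a basement membrane collagen, passed a rule, that for abundant genes, with medians of 98.95 CPM in positive cells and 41.6 CPM in negative cells. Outside the columns Col18a1 passed as well, and Scd1, a fatty acid desaturase of the sebaceous list, passed that rule as lower with -0.97 and -0.52. Of all abundant genes 3.42% passed as higher with all members, and outside the columns 6.57% as higher and 2.44% as lower.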

How the data were processed

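Read counts per gene, whole numbers without normalization, were deposited by the authors for all 188 cells. The tools named in the submitters' processing notes are cutadapt 1.13, STAR 2.5.2b and HTSeq 0.6.0, with the build GRCm38. How they were run, and on which annotation release, is not given in the sources used here. Of 49585 gene rows, 49326 matched a symbol, and 92 spike-in rows were left out of totals. Counts were scaled to CPM, and differences use log2(CPM + 1) with a pseudocount of 1 (Python 3.11.15, pandas 2.3.3, scipy 1.17.1, and scran 1.30.0 for other size factors). Genes needed 10 CPM in at least 10% of cells. A difference is the mean of both plates' differences. Named genes are the 15 per direction with the largest difference on the plate nearer to 0, list members with enough reads, and a few fixed genes. Some genes that the rule names are not reported here. The members and lists were chosen with earlier results of these data known. Chosen after seeing the data were the 4 columns, the variance between columns, the comparison with a cell's own column, the removal of wells D24 and E24, the ranking outside the columns and the form of the stray-read estimate, for which several forms were tried because the first gave impossible shares. No doublet caller was run, since cells were sorted singly, and leaving out the 9 cells with most genes was an alternative. Intervals are exact Clopper-Pearson and, without molecular identifiers, reflect counting error alone. No source says that strand was used in counting, so antisense or overlapping genes cannot be separated.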

Additional observations from a re-analysis of the deposited data

How the results depend on the processing

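The number of members was 59, and 25 at a limit of 200 CPM, 28 without the 4 columns and 23 when members had to exceed 3 times the median of their column. Genes past the size rule were 0.471% of those tested (44 genes). This share was 0.011% with log2(CPM + 10), where 1 gene, Krt84, was left, 1.52% at 200 CPM, 8.38% with the 8 negative cells that have no Krt36 read, 2.25% among cells with Krt10 under 1000 CPM, 8.09% on plate 1 alone, 6.74% on plate 2 alone, 1.61% without the 4 columns and 1.78% for members above their column. Abundant genes past 0.5 were 5.32% (196 genes), and under the same settings 1.17%, 8.79%, 19.1%, 10.7%, 29.9%, 28.4%, 9.01% and 8.88%, and 8.03% with expected stray reads subtracted. For 1 plate alone a gene had to pass on that plate only. This is a looser rule, so the shares of single plates are not comparable with those of both plates. The Krt84 difference of 2.38 was 1.28 with log2(CPM + 10), 3.40 at 200 CPM, 1.18 without the columns and 0.99 for members above their column. The hair-type keratin median of 1.24, over Krt84 and Krt32, was 0.61 with log2(CPM + 10), 0.10 with genes read in at least 1% of cells, 1.39 at 100 CPM, 1.43 at 200 CPM, 1.38 with the read-free negative cells, 0.87 with Krt10 under 1000 CPM, 0.54 without the columns and 0.27 for members above their column. The interscale median of 0.41 turned to -0.15 among cells with Krt10 under 1000 CPM. The G2/M share of 18.6% in members was 32% at 200 CPM, 54.2% when 10% of the list sufficed and 3.39% when 50% was needed. In negative cells it was 21.1% in the main form and at 200 CPM, 53.5% at the 10% cut and 9.86% at the 50% cut. The cause was not tested. No paired analysis was possible because all cells form 1 group. Depth limits low levels, since 1 read was worth up to 12 CPM in a member.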
